A study of Mus musculus with 24 samples.

Results

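The genes described here are 40 of the 54432 in the table, and they carry secreted proteins through the endoplasmic reticulum (ER) of the liver cell. They were taken by symbol, from lists of their roles: 11 ER chaperones and co-chaperones, 5 enzymes that form disulfide bonds, 5 stress sensors and the transcription factors tied to them, 6 genes of ER-associated degradation, 7 of the translocon and its partners, and 6 of the COPII coat and its cargo receptors. Each symbol matched a single row or the row with the higher mean, and all 40 passed the filter on low values. RNA was taken from whole liver of male C57BL/6 mice, 6 per group and 2 cohorts of 3 per group. Every mouse was injected into the peritoneum at 20 to 21 weeks of age with an adeno-associated virus (AAV) that encodes Cre recombinase, and was killed 4 weeks later after a 4 h fast on chow.

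The groups differed in the alleles that Cre could cut. WT mice were wild type, the group labelled Trib1-KO was Trib1 Flox/Flox, the Cebpa-KO group was Cebpa Flox/Flox, and the group labelled DKO carried both (Trib1;Cebpa Flox/Flox). The WT mice also received AAV-Cre, so the virus is shared by all 4 groups. The promoter that drives Cre is not named in the labels, and cells other than hepatocytes are part of each sample.

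Proteins bound for export enter the ER through the Sec61 channel, are folded there by chaperones such as BiP (Hspa5) and by disulfide isomerases, and leave in COPII-coated vesicles with the help of cargo receptors. Unfolded protein in the ER is sensed by IRE1 (Ern1), PERK (Eif2ak3) and ATF6, which raise transcription of chaperones, and chains that fail to fold are sent back to the cytosol for destruction. Hepatocytes make most plasma proteins, and in male mice they also secrete the major urinary proteins (Mup), small pheromone carriers encoded by a cluster of near-identical genes. The load that Mup transcripts place on a liver is the measure against which the 40 genes were set.

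Libraries held 23385895 to 27190701 normalized counts, with an estimated 18598000 to 34247000 reads behind them and 19831 to 21189 genes above 0. Differences are given on the log2 scale, computed on log2(normalized count + 1), with the standard error after ±, and a gene is said to rise or fall where limma's adjusted p (Benjamini-Hochberg over 19810 genes) was under 0.05. Cebpa was low where its label says so, with 50.5 to 102 normalized counts in the 12 libraries of Cebpa-KO and DKO against 4264 to 7412 in WT. Trib1 went against its label: its normalized counts were 3734 to 4784 where the label says Trib1-KO and 874 to 1475 in WT, a difference of 1.81 ± 0.24 (limma adjusted p = 3.50e-06). Directions drawn from these groups are therefore directions in the libraries labelled Trib1-KO or DKO. In Cebpa-KO Trib1 fell by 1.96 ± 0.24 against WT (limma adjusted p = 4.11e-06). In DKO it fell by 0.83 ± 0.24 against WT (limma adjusted p = 0.0408), the direction of the label, and was higher than in Cebpa-KO by 1.13 ± 0.24 (limma adjusted p = 0.0463). Cebpa fell by 1.16 ± 0.16 in the libraries labelled Trib1-KO (limma adjusted p = 5.26e-06).

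Mup transcripts differed widely between the groups, while the summed share of the 40 genes, in totals that include Mup, overlapped between them. The summed share of 22 Mup genes was 7.02% ± 2.21 (SD, n = 6) of all normalized counts in WT, 24.0% ± 2.34 in the libraries labelled Trib1-KO, 1.75% ± 0.41 in Cebpa-KO and 2.79% ± 1.08 in the libraries labelled DKO. No library labelled Trib1-KO was below 21.0% and no WT library was above 8.73%. Mup genes were summed because reads cannot be divided safely between copies this alike. Compared by means of log2 shares, from which the folds here are taken, it was 3.62-fold higher in the libraries labelled Trib1-KO than in WT, with an exact permutation p of 0.00216, the smallest that 924 arrangements of 6 against 6 allow, and an adjusted p of 0.00577 over 8 comparisons of shares. It was 3.86-fold lower in Cebpa-KO (exact permutation, adjusted p = 0.00577) and 2.53-fold lower in the libraries labelled DKO (exact permutation, adjusted p = 0.0130). The difference between DKO and Cebpa-KO, 0.61 on the log2 scale, did not pass (exact permutation p = 0.0541, adjusted p = 0.0866).

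The share of other cargo moved the other way in the libraries labelled Trib1-KO. All these shares are parts of totals that include Mup, so a higher Mup share by itself lowers the others. The comparisons of shares are therefore not independent. The share of 39 secreted hepatocyte products other than Mup, among them albumin, was 21.0% ± 2.12 (SD, n = 6) in WT and 12.2% ± 0.374 in these libraries, a log2 difference of -0.78 (exact permutation, adjusted p = 0.00577). In Cebpa-KO it was 22.8% ± 0.852 and in DKO 23.3% ± 2.57, and neither difference from WT passed (exact permutation, adjusted p = 0.0952 and 0.126). Mup and other secreted transcripts together made up 28.0% ± 0.407 of WT libraries, 36.2% ± 2.07 of those labelled Trib1-KO, 24.5% ± 0.928 of Cebpa-KO and 26.1% ± 2.02 of DKO. The 40 ER genes together took 0.844% ± 0.104 in WT, 0.787% ± 0.0312 in the libraries labelled Trib1-KO, 0.800% ± 0.0674 in Cebpa-KO and 0.853% ± 0.0673 in DKO. Their summed share of totals that include Mup thus overlapped between all 4 groups. Their share of totals without Mup was not compared. The overlap therefore does not show that the 40 genes took a like share of the other transcripts in the 4 groups.

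**Figure D1:**
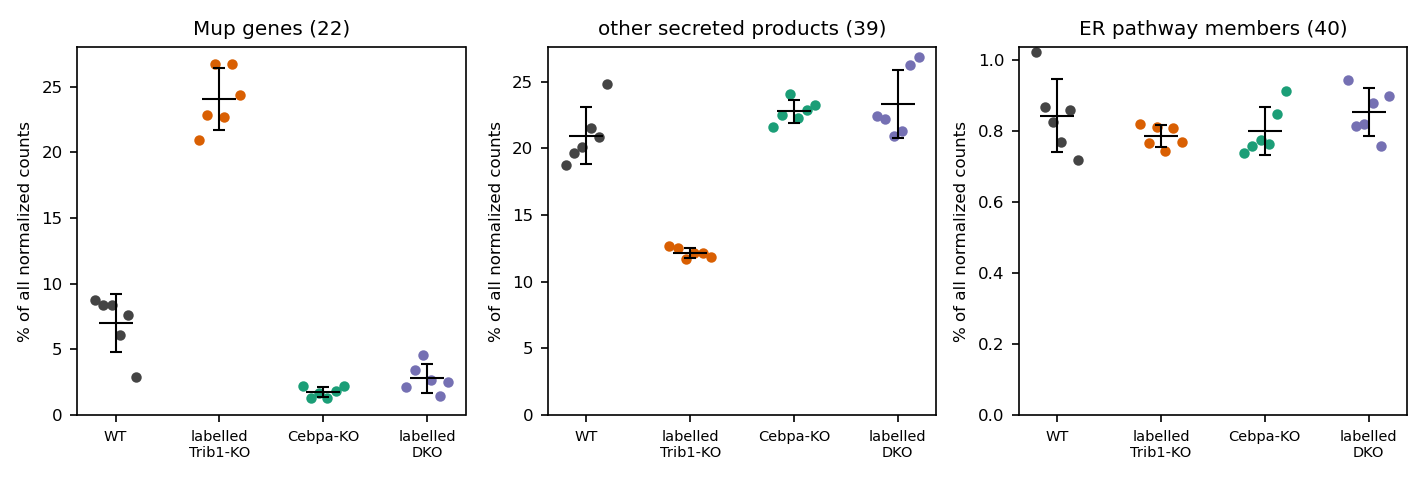
Share of all normalized counts, Mup included, in %, taken by 22 Mup genes, 39 other secreted products and the 40 ER pathway genes. Each point is a library, bars are mean ± SD (n = 6 per group), and axes start at 0. Mup shares of the libraries labelled Trib1-KO lie at 21.0 to 26.7% and those of WT at 2.93 to 8.73%, while the ER gene shares overlap.

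Against WT, 9 of the 40 genes passed the test in the libraries labelled Trib1-KO, 2 in Cebpa-KO and none in the libraries labelled DKO. These 3 comparisons share the WT libraries. The 9 were 5 that rose (Atf6, Eif2ak3, Derl1, Ssr2 and Surf4) and 4 that fell (Dnajc3, Creb3l3, Syvn1 and Sec62). They are 22.5% of the 40, next to 22.7% of all genes tested in that comparison (11.8% higher, 10.9% lower). With the values scaled as deposited, the share is thus that of the background. The 2 in Cebpa-KO, Edem1 and Derl1, both fell and are 5% of the 40, next to 9.82% of all genes (4.6% higher, 5.22% lower). For DKO against WT the count of 0 stands next to 6.09% of all genes (2.84% higher, 3.25% lower), with 5 members at an unadjusted limma p under 0.05. For DKO against Cebpa-KO, where 0.202% of all genes passed, the count was also 0, with 4 members at an unadjusted limma p under 0.05. The median difference of the 40 was -0.04 in the libraries labelled Trib1-KO, -0.09 in Cebpa-KO and -0.03 in DKO, each against WT, and the medians of all genes tested were 0.01, 0.01 and 0.00.

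The scaling decides how the count splits in the libraries labelled Trib1-KO. When each library was scaled to its total less the Mup genes, 14 of the 40 were higher and 1 was lower, but all genes tested then shifted by a median of 0.24. Relative to that shift, 18 of the 40 lay above and 22 below. Scaled to plain library totals, 2 were higher and 8 lower, and with quantile normalization 11 were higher and 1 lower. Of all genes tested, 5180 were higher and 987 lower with totals less Mup (Mup-free totals). These counts were 1990 and 2545 with library totals, and 2175 and 2413 with quantile normalization. With quantile normalization the median difference of the 40 was 0.05, above the -0.05 of all genes tested. With library totals it was -0.08, below the -0.04 of all genes tested. Creb3l3, Derl1 and Eif2ak3 passed in the same direction under all 4 scalings.

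**Figure D2:**
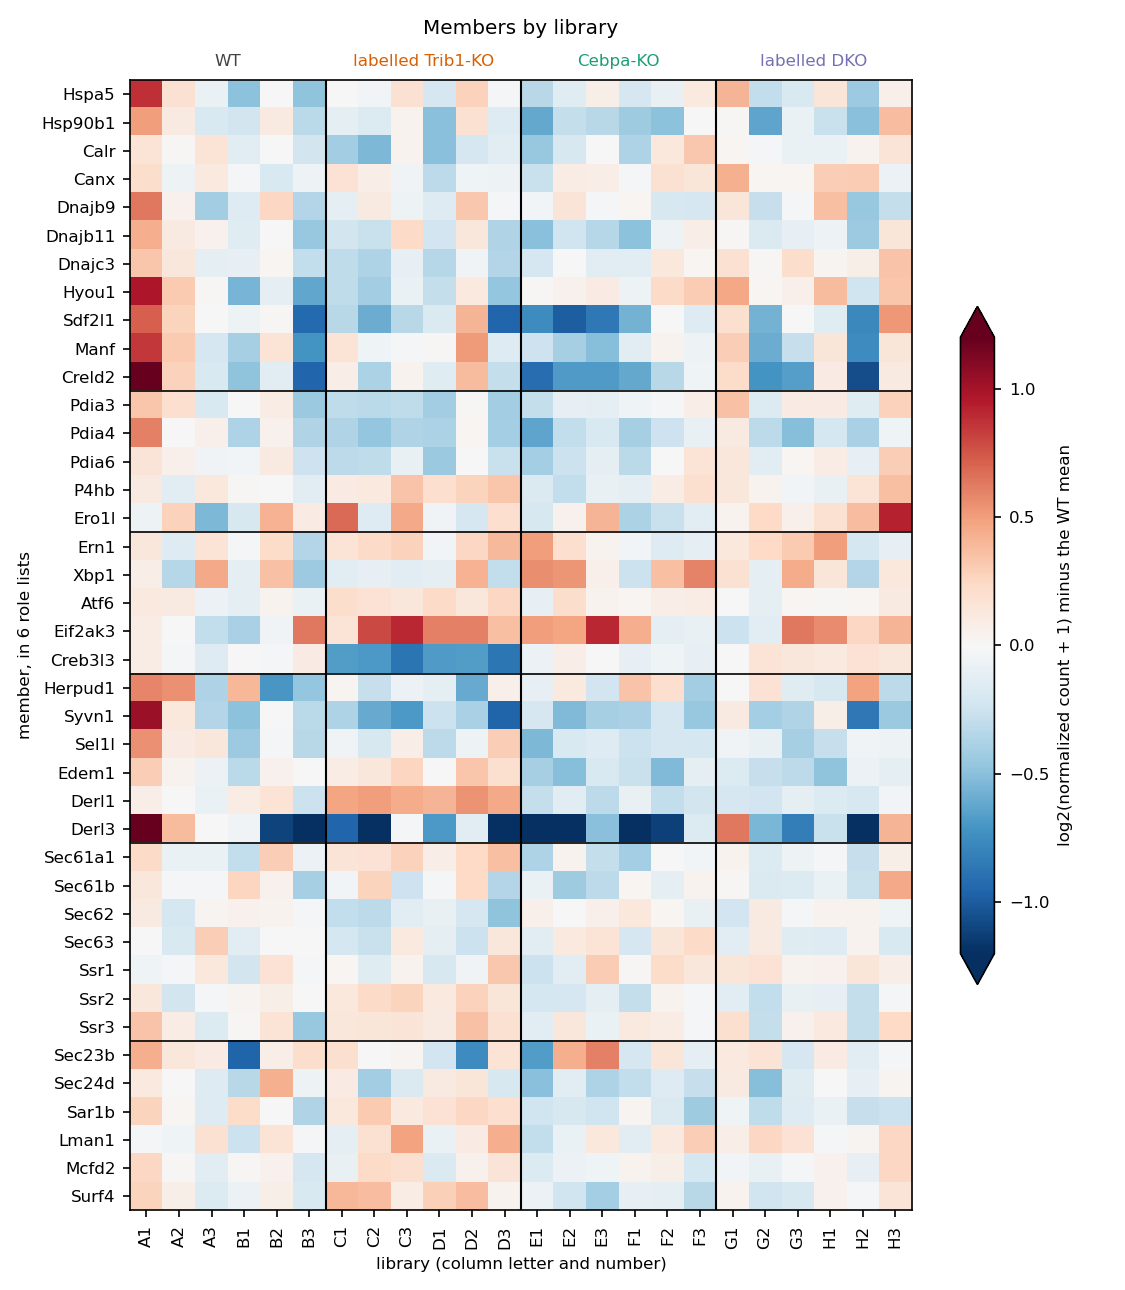
The 40 genes in all 24 libraries as log2(normalized count + 1) minus the WT mean of that gene; columns are libraries, rows are genes, horizontal lines separate the 6 role lists, and colours saturate at ±1.2. Creb3l3 is low and Derl1 high in each library labelled Trib1-KO, and the WT library A1 is high over the chaperone rows.

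Of 11 chaperones and co-chaperones, Dnajc3 alone passed in the libraries labelled Trib1-KO and none passed in Cebpa-KO or DKO against WT (limma, 2 and 0 at an unadjusted p under 0.05). Hspa5, which encodes BiP, the Hsp70 of the ER (ENSMUSG00000026864.13, chromosome 2, 34771970 to 34777547, GRCm38), was at 11622, 15941 and 30121 normalized counts in WT (lowest, median, highest). In the libraries labelled Trib1-KO it was at 14262, 16322 and 19846, in Cebpa-KO at 13007, 15108 and 17780, and in DKO at 12130, 15737 and 21702. The WT range holds every library labelled Trib1-KO and every Cebpa-KO and DKO library. The upper end of that range is library A1 alone, and the next highest WT value was 18563. Libraries C3 (18578) and D2 (19846), labelled Trib1-KO, and G1 (21702) of DKO lay above that value. The difference of Hspa5 from WT was 0.04 ± 0.17 in the libraries labelled Trib1-KO (95% interval -0.32 to 0.39, limma adjusted p = 0.916), where the Mup share was highest. In Cebpa-KO it was -0.10 ± 0.17 (interval -0.45 to 0.26, limma adjusted p = 0.817). The intervals do not show that the levels were equal.

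Dnajc3, the co-chaperone p58IPK, was at 4766, 5689 and 7351 normalized counts in WT and at 4500, 4667 and 5655 in the libraries labelled Trib1-KO. These ranges overlap. The difference was -0.25 ± 0.09 (limma adjusted p = 0.0452). It was -0.01 with Mup-free totals (adjusted p = 0.963) and -0.09 with quantile normalization (adjusted p = 0.499). Leaving out any of 7 libraries (A1, A2, B2, C1, C2, D1 or D3) ended the call, with adjusted p between 0.0713 and 0.134. Among chaperones that did not pass, Hsp90b1, the ER Hsp90 known as GRP94, was at -0.12 ± 0.15, the lectin chaperone Calr at -0.29 ± 0.12 and its membrane-bound relative Canx at -0.04 ± 0.10, all in the libraries labelled Trib1-KO against WT. Creld2 and Sdf2l1, small ER proteins known as stress-induced genes, were at -0.55 ± 0.28 and -0.55 ± 0.25 in Cebpa-KO, with limma adjusted p of 0.271 and 0.191.

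The spread between mice of the same group differed widely among the 40 genes. Among 10129 genes whose mean reached 100 normalized counts, the median gene had a within-group SD of 0.213 on the log2 scale, and the 11 chaperones had a median of 0.284. Creld2 had the widest of them at 0.536 and Sdf2l1 was next at 0.470. The translocon genes had a median of 0.163, Creb3l3 had 0.0830 and Atf6 0.0843. The 6 degradation genes had a median of 0.297, and 1 of them, Derl3, varied most of all 40 with 1.05. These are descriptions of single genes and share the same 24 libraries.

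A pair of WT libraries lay at the ends of the chaperone values. Library A1 was the highest WT library for 11 of the 11 chaperones, by a mean of 0.65 above the group mean, and the highest of all 24 libraries for 8 of them. Library B3 was the lowest WT library for 8 of the 11, at a mean of -0.49. It also had the lowest Mup share in WT, 2.93%, whereas A1 had the highest, 8.73%. Libraries A2 and A3 were close to A1 in Mup share, at 8.37% each, with mean chaperone deviations of 0.15 and -0.08. In A1 Hspa5 was at 30121 normalized counts and in B3 at 11681. The pattern was not limited to chaperones. Over the 6 degradation genes A1 lay at a mean of 0.85 and was the highest WT library for 5, and B3 lay at -0.53 and was the lowest for 2. With A1 and B3 both left out, an alternative chosen after seeing the data, 9 members passed in the libraries labelled Trib1-KO, 5 higher and 4 lower, with Syvn1 lost and Pdia3 gained, and 1 in Cebpa-KO, Derl1.

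Several of these genes share a short upstream element, the ER stress element, through which ATF6 and XBP1 are known to act. The element was searched as CCAAT and CCACG with 9 bases between, on both strands, in RefSeq windows of 250 bases before to 50 bases after the annotated start (build GRCm38.p6), which were found for 33 of the 40 genes. It stood in 9 of the 33, namely Calr, Canx, Creld2, Derl3, Dnajc3, Hsp90b1, Hspa5, Pdia6 and Syvn1, and in 0.119% of all 32851 windows. The stretches below carry it in capitals, each read 5′ to 3′ on the strand on which CCAAT comes first. They belong to genes whose values are described in the text, and those of Calr and Canx are not printed. Hsp90b1 holds another match, at -212 to -194, that is not printed either.
Hspa5, chr2:34772011-34772057, plus strand: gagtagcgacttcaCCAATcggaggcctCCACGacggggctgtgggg
Hsp90b1, chr10:86705519-86705565, plus strand: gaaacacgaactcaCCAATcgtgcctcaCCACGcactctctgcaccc
Dnajc3, chr14:118937813-118937859, plus strand: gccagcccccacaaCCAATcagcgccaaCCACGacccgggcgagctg
Creld2, chr15:88819506-88819552, minus strand: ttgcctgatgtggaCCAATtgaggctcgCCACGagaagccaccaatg
Pdia6, chr12:17266477-17266523, plus strand: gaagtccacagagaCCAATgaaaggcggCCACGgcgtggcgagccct
Derl3, chr10:75893228-75893274, minus strand: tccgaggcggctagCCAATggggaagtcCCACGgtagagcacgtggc
Syvn1, chr19:6046518-6046564, plus strand: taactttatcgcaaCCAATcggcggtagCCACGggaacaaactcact
The match in Hspa5 lies at -65 to -47 from the RefSeq start and that in Syvn1 at -44 to -26. The GENCODE span of Hspa5 given above opens earlier, at 34771970, so the Hspa5 match lies inside that span. A shorter form, ATTGG and CCACG with 1 base between, stood in Dnajb11 and Herpud1 and in 0.0365% of all windows. In Herpud1 it lies at -52 to -42, within
Herpud1, chr8:94386363-94386401, plus strand: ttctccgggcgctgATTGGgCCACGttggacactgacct
The core TGACGTG was found in Hspa5 and Sec24d and in 2.01% of all windows. A C/EBP-type motif, TTGCNNAA, was found in Canx, Sec63 and Xbp1, which is 9.09% of the 33, next to 10.8% of all windows. Matches of letters are descriptions of these windows and not of binding.

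Disulfide formation showed no member past the test against WT in any group. Pdia3, Pdia4 and Pdia6, isomerases that pair cysteines in new chains, were at -0.29 ± 0.11, -0.32 ± 0.14 and -0.24 ± 0.10 in the libraries labelled Trib1-KO, with limma adjusted p of 0.0630, 0.0891 and 0.0885. P4hb, the main disulfide isomerase, was at 0.23 ± 0.09 there (limma adjusted p = 0.0560). Its normalized counts were 27454 to 32677 in WT and 32118 to 37972 in the libraries labelled Trib1-KO, ranges that overlap at their edges. Ero1l, the oxidase that recharges P4hb, was at 0.16 ± 0.18. The 3 isomerases and P4hb thus carried opposite signs, and with plain library totals the 3 passed as lower while with Mup-free totals P4hb passed as higher. In Cebpa-KO the 5 genes lay between -0.31 and -0.06 and in DKO between -0.23 and 0.30, and none passed.

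Among the stress sensors, Creb3l3 had the smallest adjusted p of all 40 genes in the libraries labelled Trib1-KO. It encodes CREBH, a hepatocyte transcription factor anchored in the ER membrane and released by cleavage (ENSMUSG00000035041.8, chromosome 10, 81084324 to 81098874). It was at 7144, 7975 and 8534 normalized counts in WT (lowest, median, highest), at 4335, 4954 and 5025 under the Trib1-KO label, in Cebpa-KO at 7451, 7662 and 8422 and in DKO at 8003, 8774 and 9023. Every library labelled Trib1-KO lay below every other library. The difference from WT was -0.74 ± 0.06 in these libraries (limma adjusted p = 3.06e-10), -0.04 ± 0.06 in Cebpa-KO (interval -0.15 to 0.08, limma adjusted p = 0.773) and 0.12 ± 0.06 in DKO (limma adjusted p = 0.25). With Mup-free totals the fall in the libraries labelled Trib1-KO was -0.50.

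Of the 3 sensors, 2 rose in the libraries labelled Trib1-KO. Atf6, a membrane-bound factor that is cut in the Golgi under stress, was at 2194, 2353 and 2574 normalized counts in WT and at 2615, 2718 and 2814 in the libraries labelled Trib1-KO. The ranges do not meet. It rose by 0.19 ± 0.06 (limma adjusted p = 0.0164), a call that plain library totals ended (0.14, adjusted p = 0.0778). Eif2ak3, the kinase PERK that halts translation under stress, was at 278, 361 and 567 in WT and at 409, 555 and 684 in the libraries labelled Trib1-KO, with overlap. It rose by 0.57 ± 0.19 (limma adjusted p = 0.0317), and without any of A3, B1, B2, C2, C3, D1 or D2 the adjusted p lay between 0.0513 and 0.0822. Ern1, which encodes IRE1 and splices Xbp1 messenger RNA, was at 0.21 ± 0.12 (limma adjusted p = 0.244).

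Xbp1, the transcription factor activated by that splicing, was at 3052, 4101 and 5651 normalized counts in WT. It was at 3352, 3779 and 5503 in the libraries labelled Trib1-KO, at 3441, 5628 and 6241 in Cebpa-KO and at 3244, 4528 and 5612 in DKO. All 4 ranges overlap. Its differences from WT were -0.06 ± 0.17, 0.31 ± 0.17 and 0.07 ± 0.17, with limma adjusted p of 0.840, 0.291 and 0.879. The table holds 1 value per gene, so spliced and unspliced Xbp1 cannot be told apart.

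**Figure D3:**
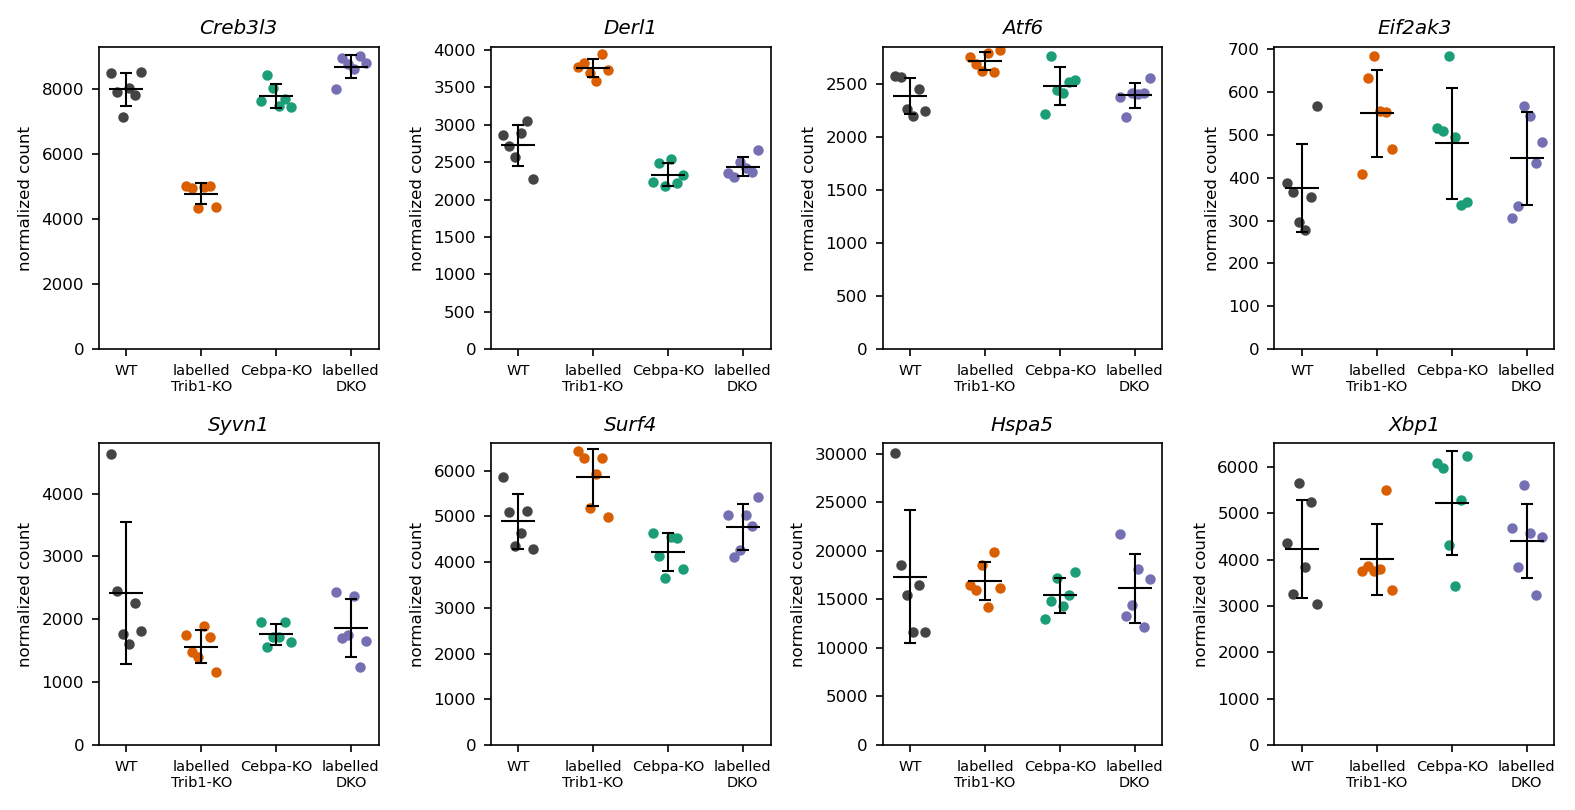
Normalized counts of 8 members in each library (points) with the group mean ± SD (bars, n = 6), on axes that start at 0. Creb3l3 (4335 to 5025) and Derl1 (3593 to 3953) of the libraries labelled Trib1-KO do not meet the WT points, whereas Hspa5 and Xbp1 overlap in all 4 groups.

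ER-associated degradation held genes that differed in opposite directions. Derl1, a derlin of the channel through which misfolded chains leave the ER (ENSMUSG00000022365.6, chromosome 15, 57869502 to 57892448), was at 2274, 2788 and 3046 normalized counts in WT, at 3593, 3755 and 3953 under the Trib1-KO label, in Cebpa-KO at 2177, 2284 and 2545 and in DKO at 2307, 2400 and 2657. Every library labelled Trib1-KO lay above every other library, and the other 3 groups overlapped. It rose by 0.47 ± 0.06 in the libraries labelled Trib1-KO (limma adjusted p = 3.44e-06) and fell by 0.22 ± 0.06 in Cebpa-KO (limma adjusted p = 0.0238). The second call was lost without any of A1, B1, B2, E1, E3 or F2, where the adjusted p lay between 0.0507 and 0.0698. With library totals Derl1 was at -0.19 in Cebpa-KO and did not pass (adjusted p = 0.0638). In DKO it was at -0.16 ± 0.06 (limma adjusted p = 0.165).

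Syvn1, the ubiquitin ligase HRD1 of the same channel, was at 1600, 2034 and 4631 normalized counts in WT and at 1159, 1602 and 1886 in the libraries labelled Trib1-KO. The ranges overlap, and the highest WT value is library A1. It fell by 0.54 ± 0.19 (limma adjusted p = 0.0453). Without A1 the difference was -0.34, the call was also lost without A2, B2, C2, C3 or D3, and the adjusted p over these 6 ran from 0.0670 to 0.127. Mup-free totals (-0.30, adjusted p = 0.282), quantile normalization (-0.50, adjusted p = 0.0622) and a fit of 2 groups only ended it too. Edem1, which marks misfolded glycoproteins for removal, was at 2911, 3687 and 4442 in WT and at 2516, 2889 and 3372 in Cebpa-KO, with overlap. It fell by 0.33 ± 0.09 there (limma adjusted p = 0.0218), and without A1, E2 or F2 the adjusted p was 0.0603 to 0.0613. Herpud1, Sel1l and Derl3, partners of HRD1, did not pass, with differences of -0.16 ± 0.20, -0.04 ± 0.13 and -0.99 ± 0.56 in the libraries labelled Trib1-KO. Derl3 ran from 23.9 to 522 normalized counts within WT alone.

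Of 7 translocon genes, 1 rose and 1 fell in the libraries labelled Trib1-KO, and none passed in Cebpa-KO or DKO against WT. With library totals 0 were higher and 1 lower in the libraries labelled Trib1-KO, with quantile normalization 3 and 0, and with Mup-free totals 4 and 0. Under Mup-free totals 5180 of all 19851 genes were higher and 987 lower. Sec61a1, the channel subunit of the Sec61 complex (ENSMUSG00000030082.14, chromosome 6, 88503579 to 88518905), was at 3050, 3553 and 4583 normalized counts in WT. It was at 3940, 4310 and 4795 under the Trib1-KO label, in Cebpa-KO at 2824, 3355 and 3844 and in DKO at 3090, 3641 and 3924. The libraries labelled Trib1-KO overlapped with WT and lay above all Cebpa-KO and DKO libraries. The difference from WT was 0.21 ± 0.10 in the libraries labelled Trib1-KO (interval 0.01 to 0.41, limma adjusted p = 0.125; it passed as higher with quantile normalization, 0.34, adjusted p = 0.0114, and with Mup-free totals, 0.46, adjusted p = 0.000857) and -0.18 ± 0.10 in Cebpa-KO (limma adjusted p = 0.293). Of its partners, Sec62, which helps chains enter after translation, fell by 0.25 ± 0.07 (limma adjusted p = 0.00869), with 2283 to 2853 normalized counts in WT and 1893 to 2483 in the libraries labelled Trib1-KO, which overlap. Mup-free totals brought that to -0.01 (adjusted p = 0.943) and quantile normalization to -0.18 (adjusted p = 0.0727). Ssr2, a subunit of the signal sequence receptor beside the channel, rose by 0.19 ± 0.07 (limma adjusted p = 0.0471), with 1060 to 1355 in WT and 1337 to 1492, which overlap at the edges. That call was lost with the column letter as a term within groups and without any of A2, A3, B1, B3, C1, C2, C3, D2 or D3 (adjusted p 0.0508 to 0.132). Library totals ended it too (0.15, adjusted p = 0.161). Sec61b, Sec63, Ssr1 and Ssr3 were between -0.10 and 0.18 and did not pass.

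Of the COPII coat and cargo receptors, Surf4, the receptor that gathers lipoproteins and other soluble cargo into vesicles (chromosome 2, 26920040 to 26933928), was at 4280, 4864 and 5867 normalized counts in WT. It was at 4990, 6104 and 6420 under the Trib1-KO label, in Cebpa-KO at 3653, 4317 and 4644 and in DKO at 4112, 4901 and 5417. Each of these ranges overlaps with WT, and the libraries labelled Trib1-KO lay above all of Cebpa-KO. It rose by 0.26 ± 0.09 in the libraries labelled Trib1-KO (limma adjusted p = 0.0369), and the adjusted p was 0.0615 to 0.0888 without any of A3, B1, B3, C1, C2, D1 or D2. With library totals it was at 0.21 there and did not pass (adjusted p = 0.113). In Cebpa-KO it was at -0.21 ± 0.09 (limma adjusted p = 0.160). Lman1, the lectin receptor ERGIC-53 that carries clotting factors with its partner Mcfd2 (chromosome 18, 65980738 to 66022580), was at 4087, 4829 and 5571 in WT and at 4518, 5392 and 6827 in the libraries labelled Trib1-KO. In Cebpa-KO it was at 4001, 4971 and 6019 and in DKO at 4828, 5357 and 5834, so that all groups overlapped. Its differences from WT were 0.17 ± 0.11, 0.01 ± 0.11 and 0.13 ± 0.11 (limma adjusted p = 0.307, 0.986 and 0.594). In the libraries labelled Trib1-KO it passed as higher with quantile normalization (0.32, adjusted p = 0.0257) and with Mup-free totals (0.41, adjusted p = 0.00502). Of the 6 genes of this list, 3 and 4 were higher under these scalings and 0 with library totals. Under Mup-free totals all genes tested shifted by a median of 0.24. Mcfd2, the coat subunits Sec23b and Sec24d and the GTPase Sar1b lay between -0.10 and 0.20 in the libraries labelled Trib1-KO, and none passed.

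**Figure D4:**
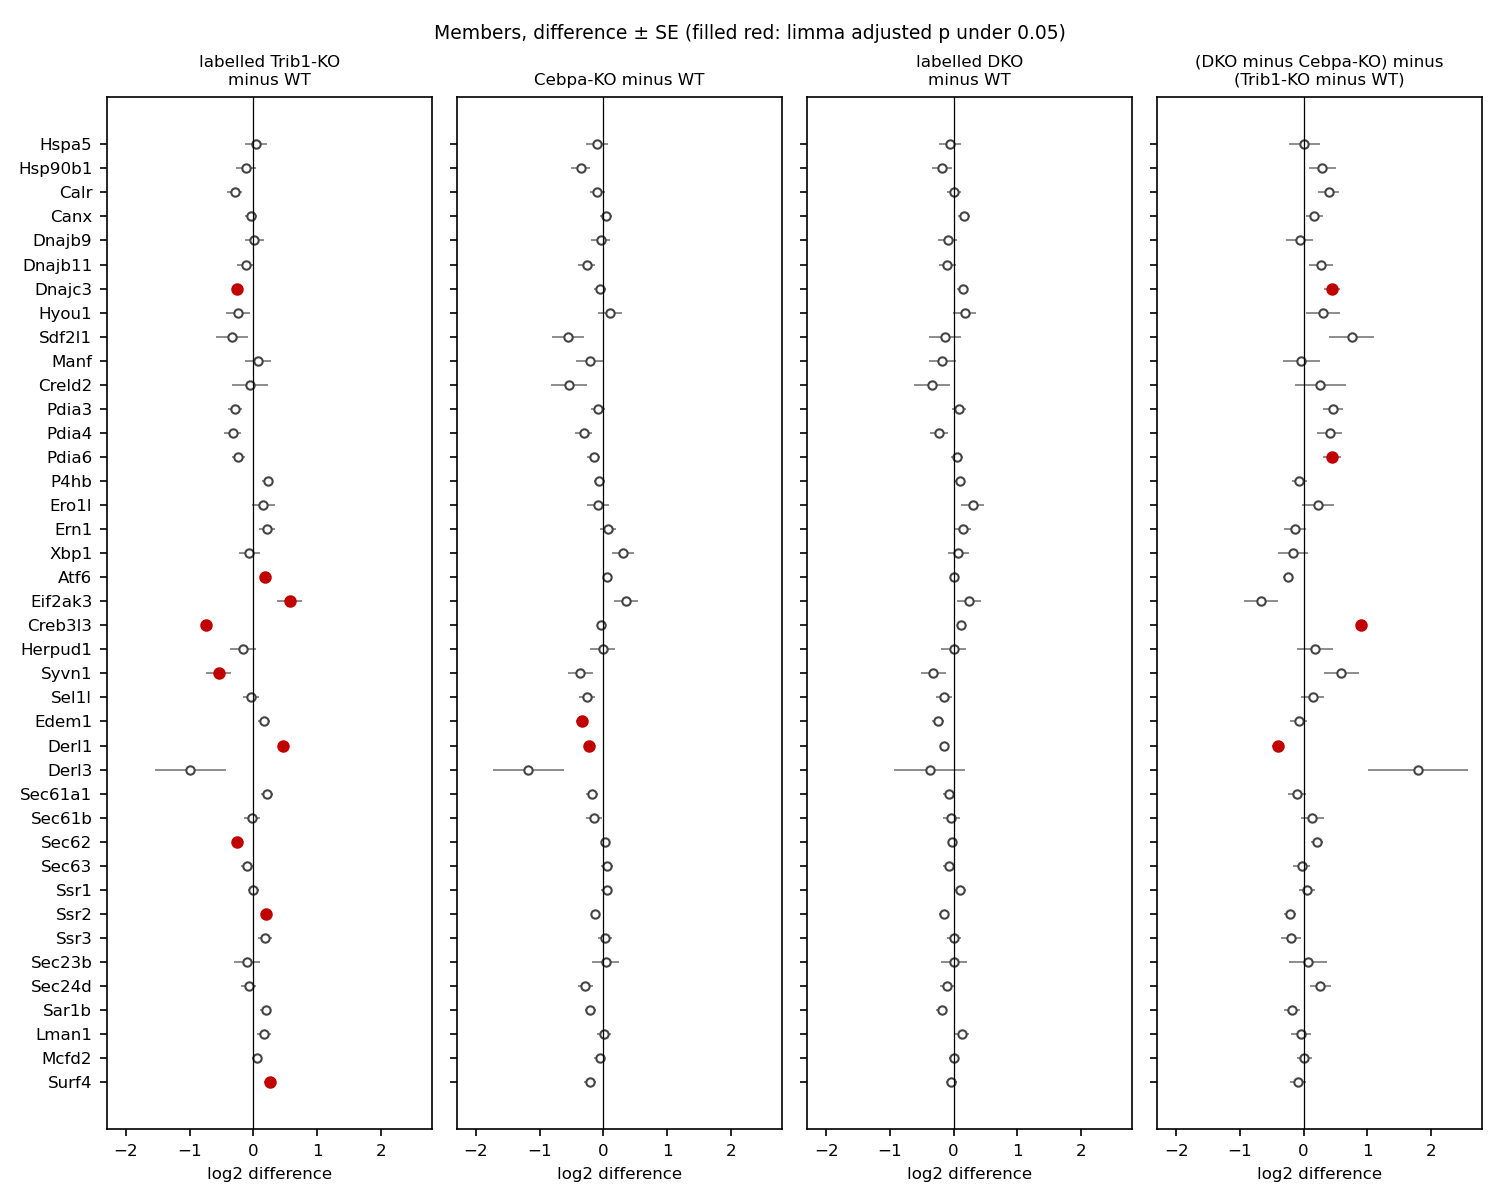
Log2 difference ± SE of the 40 genes in 4 comparisons (n = 6 libraries per group); filled red points have a limma adjusted p under 0.05. The 9, 2, 0 and 4 red points are the genes named in the text, and Derl3 carries the widest error bars.

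Whether the difference made by the Trib1 label depended on Cebpa was read from the interaction, the difference of DKO from Cebpa-KO minus that of the libraries labelled Trib1-KO from WT. It passed for 4 of the 40, which is 10% next to 12.6% of all genes (6.35% higher, 6.22% lower). Creb3l3 had an interaction of 0.90 ± 0.08 (limma adjusted p = 1.64e-08), since its difference was -0.74 for the Trib1-KO label against WT and 0.16 ± 0.06 for DKO against Cebpa-KO. Derl1 had -0.41 ± 0.09 (limma adjusted p = 0.00264), from 0.47 and 0.06 ± 0.06. Both passed in the same direction under each of the 34 alternatives. Dnajc3 had 0.45 ± 0.13 (limma adjusted p = 0.0199), and Pdia6 had 0.44 ± 0.14 (limma adjusted p = 0.0353). With Mup-free totals these became 0.21 and 0.20 and did not pass (adjusted p = 0.277 and 0.352), where the median of all genes was itself at -0.24. With quantile normalization, where that median was 0.03, they were 0.29 and 0.28 and did not pass either (adjusted p = 0.132 and 0.205). Pdia6 was lost without any of 13 libraries (A1, A2, B2, C1, C2, D1, D3, E1, E2, F1, G1, H1 or H3), with values of 0.39 to 0.44. The split over the 40 was 3 higher and 1 lower as deposited, 1 and 5 with Mup-free totals, 4 and 1 with library totals and 1 and 3 with quantile normalization.

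Within a group, the Mup share of a mouse did not track these genes in a way that passed a test. For Hspa5, Xbp1, Creb3l3, Sec61a1, Lman1 and Surf4 in each of 4 groups, 24 relations were computed over 6 libraries each. Pearson's r ran from -0.57 to 0.75 and was positive in 16, and Spearman's rho ran from -0.66 to 0.83. The lowest exact permutation p values were 0.0944 and 0.0583, and the lowest adjusted values 0.540 and 0.725, so none passed. With Mup-free totals r ran from -0.59 to 0.80 and was positive in 20. None passed there either (lowest exact permutation p of r = 0.0542, adjusted p = 0.507). Leaving out the 2 libraries farthest from the median Mup share turned the sign of r in 11 of the 24. Hspa5 in WT had r = 0.66 (exact permutation p = 0.178) and rho = 0.77 (exact permutation p = 0.103), and r = 0.65 without the 2 farthest libraries. In the other groups its r changed more. It went from 0.75 to -0.11 in the libraries labelled Trib1-KO, from 0.16 to -0.34 in Cebpa-KO and from -0.01 to -0.96 in DKO. No correlation was pooled over groups, because the libraries labelled Trib1-KO form a separate cluster of Mup share and the groups differ in genotype.

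**Figure D5:**
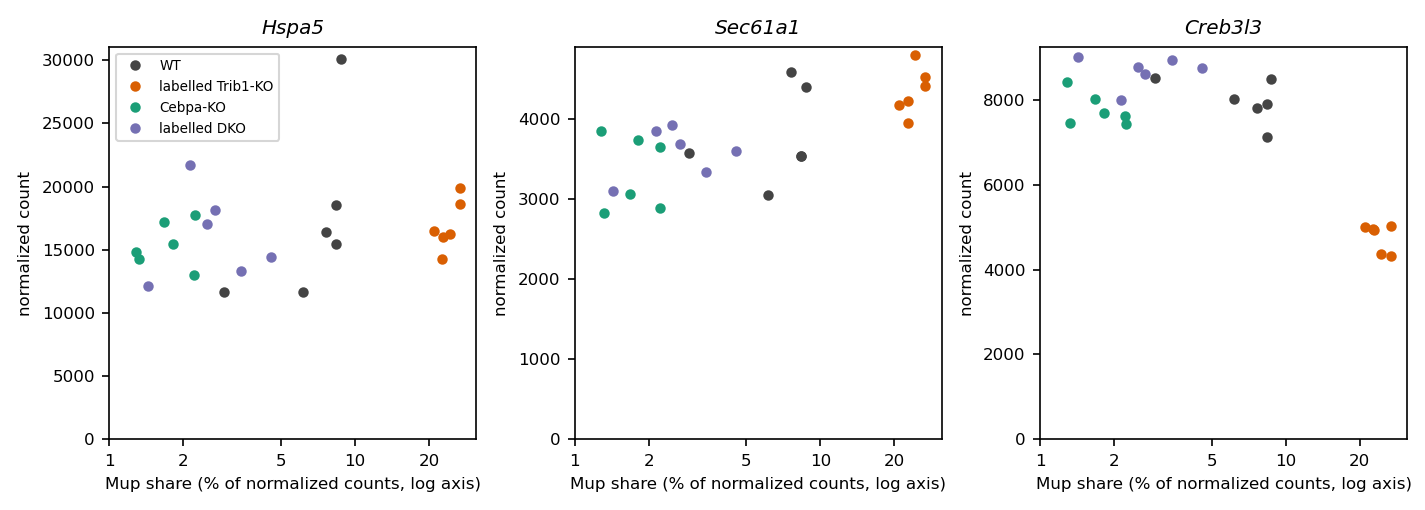
Normalized counts of Hspa5, Sec61a1 and Creb3l3 against the Mup share of each library (log axis, % of normalized counts); points are libraries, coloured by group. Libraries labelled Trib1-KO form a separate cluster at 21.0 to 26.7% Mup, in which Creb3l3 lies between 4335 and 5025. Hspa5 stays within the WT range there, but the upper end of that range is the WT library A1 alone.

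The wider pathway was read from 6 further lists of 140 genes, 139 of which were tested. In the libraries labelled Trib1-KO 25 rose and 23 fell, in Cebpa-KO 5 rose and 10 fell, in DKO 4 rose and 7 fell, each against WT. These are 34.5%, 10.8% and 7.91% of the 139, next to 22.7%, 9.82% and 6.09% of all genes tested. In the libraries labelled Trib1-KO 11.8% of all genes rose and 10.9% fell. With Mup-free totals 5180 of 19851 genes were higher there and 987 lower, beside which the list counts under that scaling stand. For DKO against Cebpa-KO none passed in limma, with 13 at an unadjusted p under 0.05.

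Of 26 folding enzymes and glycan processing genes outside the 40, 11 fell, 1 rose and 14 did not pass in the libraries labelled Trib1-KO. Of all genes 10.9% fell and 11.8% rose there (22.7% passed), and of the 26 genes 46.2% passed. With library totals 12 were lower and 1 higher, with quantile normalization 9 and 2, and with Mup-free totals 2 and 4. Prdx4, the ER peroxiredoxin that passes oxidation to disulfide isomerases, was at 1284, 1432 and 1644 normalized counts in WT and at 455, 621 and 692 in these libraries, without overlap. It fell by 1.25 ± 0.09 (limma adjusted p = 7.12e-11) and rose by 0.46 ± 0.09 in DKO (limma adjusted p = 0.00135). The isomerase Pdia5 fell there as well and was 2.29-fold lower (limma adjusted p = 1.13e-06). In Cebpa-KO, 3 of the 26 rose and 1 fell, next to 4.6% and 5.22% of all genes. The sulfhydryl oxidase Qsox1 fell there by 1.28 ± 0.22 and the J-domain protein Dnajc1 rose by 0.37 ± 0.08 (limma adjusted p = 2.55e-04 and 0.00419).

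Of 22 other degradation genes, 2 rose and 4 fell in the libraries labelled Trib1-KO. These are 27.3% of the 22, next to 22.7% of all genes tested (11.8% higher, 10.9% lower). Os9, a lectin of the HRD1 complex, fell by 0.55 ± 0.08 (limma adjusted p = 2.13e-05), and the ligase Rnf139 fell by 0.33 ± 0.09 (limma adjusted p = 0.00648), a call lost with Mup-free totals. In Cebpa-KO the ubiquitin-conjugating enzyme Ube2g2 fell by 0.72 ± 0.12 (limma adjusted p = 3.10e-04). Edem2, a relative of Edem1, had an interaction of 0.37 ± 0.10 (limma adjusted p = 0.0162). Ube2g2 was also lower in DKO, at -0.49 ± 0.12 (limma adjusted p = 0.0164).

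Of 28 other genes of translocation, signal peptide cleavage and N-glycosylation, 4 rose and 2 fell in the libraries labelled Trib1-KO, against 12 and 1 with Mup-free totals. That scaling shifted all genes tested by a median of 0.24. Tram2, a helper of the channel, fell by 0.74 ± 0.12 (limma adjusted p = 3.43e-05), and Tusc3, an oligosaccharyltransferase subunit, rose by 0.58 ± 0.14 (limma adjusted p = 0.00359). In Cebpa-KO 2 fell, the signal peptidase subunit Spcs2, which fell by 0.32 ± 0.07, and the oligosaccharyltransferase subunit Rpn1, which fell by 0.23 ± 0.07 (limma adjusted p = 0.00264 and 0.0497). In DKO Spcs2 fell by 0.25 ± 0.07 (limma adjusted p = 0.0287).

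Of 38 other ER-to-Golgi transport genes, 7 rose and 4 fell in the libraries labelled Trib1-KO, and 23 were higher and 2 lower with Mup-free totals. Under that scaling 5180 of all 19851 genes were higher and 987 lower, with a median shift of 0.24. As deposited, 28.9% of the 38 passed, next to 22.7% of all genes. Mia3, which encodes TANGO1, the receptor that loads bulky cargo, was at 6048, 6464 and 7092 normalized counts in WT, at 3720, 3890 and 4188 under the Trib1-KO label, in Cebpa-KO at 8009, 8996 and 11394 and in DKO at 7773, 8356 and 10492. WT overlapped with none of the other groups. The differences from WT were -0.74 ± 0.08, 0.51 ± 0.08 and 0.40 ± 0.08 (limma adjusted p = 1.25e-07, 9.08e-05 and 0.00203). Copz1, a COPI coat subunit, fell by 0.41 ± 0.05 in the libraries labelled Trib1-KO (limma adjusted p = 1.53e-06). Ergic1 fell by 0.26 ± 0.07 in Cebpa-KO and Sec16a, which marks ER exit sites, fell by 0.33 ± 0.09 in DKO (limma adjusted p = 0.0151 and 0.0203). The SNARE Sec22b had an interaction of -0.51 ± 0.11 (limma adjusted p = 0.00247).

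Of 18 transcription factors and targets of the PERK branch and other stress responses, 7 rose and none fell in the libraries labelled Trib1-KO, and 7 to 10 were higher and none lower under the 3 other scalings. Of all genes 11.8% rose and 10.9% fell, and with Mup-free totals, which gave the count of 10, 5180 of 19851 genes were higher. Atf3, a factor induced by many stresses, was at 7.17, 12.2 and 18.4 normalized counts in WT and at 402, 607 and 792 in these libraries, without overlap. It rose by 5.46 ± 0.39 (limma adjusted p = 1.02e-10), and Nupr1, a stress-induced chromatin protein, by 2.85 ± 0.31 (limma adjusted p = 1.66e-07). Ddit3, which encodes CHOP, had an interaction of -1.36 ± 0.19 (limma adjusted p = 2.26e-05). Asns, the asparagine synthetase driven by ATF4, was at 141, 232 and 653 in WT and at 4.54, 9.33 and 25.0 in Cebpa-KO, without overlap. It fell by 4.51 ± 0.47 in Cebpa-KO (limma adjusted p = 4.23e-07) and fell by 4.13 ± 0.47 in DKO (limma adjusted p = 2.28e-06), whereas it rose by 2.23 ± 0.47 in the libraries labelled Trib1-KO (limma adjusted p = 0.0009). Bbc3, which promotes apoptosis, fell in Cebpa-KO, where it was 2.30-fold lower, and Sesn2 rose by 0.61 ± 0.12 in DKO (limma adjusted p = 0.00148 and 0.00196).

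Of 7 genes known as targets of CREBH, 4 rose and 2 fell in the libraries labelled Trib1-KO, next to 11.8% and 10.9% of all genes. Creb3l3 itself fell there, and a link between it and these 7 genes was not tested. Those that rose were the fasting hormone Fgf21, the apolipoproteins Apoa4 and Apoc2 and the pentraxin Apcs, and those that fell were Apoa5 and Crp, of which neither passed as lower with Mup-free totals. Apoa4 was at 914, 1320 and 1680 normalized counts in WT and at 23798, 29485 and 41275 in the libraries labelled Trib1-KO, without overlap, and rose by 4.55 ± 0.32 (limma adjusted p = 1.09e-10). Apcs rose by 2.48 ± 0.44 (limma adjusted p = 1.36e-04). In Cebpa-KO Crp rose by 0.37 ± 0.08 and Fgf21 fell by 1.79 ± 0.41 (limma adjusted p = 0.00283 and 0.00480). In DKO Apoc2 rose by 0.68 ± 0.16 and Fgf21 fell by 1.47 ± 0.41 (limma adjusted p = 0.00873 and 0.0311).

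Cells other than hepatocytes also use these genes, and some of their markers differed between groups. The counts of markers below stand next to 11.8% of all genes that rose and 10.9% that fell in the libraries labelled Trib1-KO. Of 10 Kupffer cell and macrophage markers, 8 rose in the libraries labelled Trib1-KO, where their summed level was 14769 to 18289 normalized counts against 7799 to 14345 in WT. It was 9750 to 13778 in Cebpa-KO and 8956 to 14001 in DKO. Of 8 plasma cell and B cell markers, 3 rose and 1 fell, with summed levels of 556 to 1598 against 545 to 835. Stellate cell markers rose in 3 of 7, sinusoidal endothelial markers rose in 3 and fell in 2 of 7, and cholangiocyte markers fell in 2 of 5. The summed level of these 5 was 1078 to 1481 in WT, 795 to 961 in the libraries labelled Trib1-KO, 2576 to 7823 in Cebpa-KO and 2344 to 5365 in DKO. Of the 5, Spp1 rose by 1.66 ± 0.21 in Cebpa-KO (limma adjusted p = 4.61e-06) while Sox9 fell by 1.88 ± 0.24 there (limma adjusted p = 5.12e-06). Of 8 pancreatic acinar markers, 6 did not pass the filter on low values, and Cel was at 0 in all 24 libraries. Hepatocyte markers, a list in which albumin weighs most, summed to 792297 to 935938 in the libraries labelled Trib1-KO and to 1718939 to 2545648 in WT. The part of these cells in the values of the 40 genes was not tested, and whole-liver RNA cannot tell fewer cells of a type from less RNA per cell.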

How the data were processed

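RNA-seq of whole liver was analysed for 24 mice in 4 groups of 6. The authors deposited a table of signal values per gene that, read from the values, are estimated counts divided by a size factor per library. Salmon, DESeq2 and GRCm38.p6 are named in the submitters' processing notes, with versions and settings not given in the sources used here. Of the low values (under 12), 64.2 to 68.0% lay within 0.02 of whole multiples of the smallest step, so whole reads were not recovered and no count model was run. Symbols and coordinates came from GENCODE M21, which held 54050 of 54432 identifiers. Columns name group, letter and number but no cohort. Each group has 2 letters of 3 columns, but no label ties a letter to a cohort, so the letter was used as a term within groups only.

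Values were analysed with limma 3.58.1 (R 4.3.3, intensity trend) on log2(value + 1), for 19810 genes with a mean of at least 1, in a single model of 4 group means. The fit was tested on simulated data. Shares were compared by exact 2-sided permutation tests in Python 3.11.15. Alternatives were pseudocounts of 0.5 and 5, a mean of at least 10 or no filter, 3 other scalings, the column number as a block, the column letter within groups, each library left out, and 2 groups only. The members and lists were chosen with earlier results of these data known. Named were Hspa5, Xbp1, Creb3l3, Sec61a1, Lman1 and Surf4, up to 5 called members per comparison with the largest difference, and up to 2 called genes per further list with the smallest adjusted p. Protein sequences were not used here, and 1 gene that this rule names is not reported here. Other members were named by their role after values were seen.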

Additional observations from a re-analysis of the deposited data

Results flagged for a closer look

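In groups of 6, a library was set apart where its gap to the nearest of the others exceeded 0.625 of the group's range. All 40 members and both shares were checked, 168 groups in all, where chance flags about 1 in 20, and 13 values stood apart. In WT the highest value, library A1 in each case, was 2497 normalized counts for Creld2, 7067 for Pdia4, 4631 for Syvn1 and 522 for Derl3. Sec63 had a highest WT value of 4554 and Sec23b a lowest of 446. In the libraries labelled Trib1-KO the highest value, library D2 in each case, was 10942 for Pdia3, 4731 for Pdia4, 5503 for Xbp1 and 6146 for Ssr3. In DKO it was 954 for Ero1l and 1053 for Sec61b, and in Cebpa-KO the lowest value of Sel1l was 2901.

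The difference made by the Trib1 label differed with the Cebpa genotype, by limma's interaction, for Creb3l3 (0.90), Derl1 (-0.41), Dnajc3 (0.45) and Pdia6 (0.44) on the log2 scale.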

How the results depend on the processing

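Calls of members against WT in the libraries labelled Trib1-KO numbered 9, and 5 without a filter on low values, 15 with library totals without Mup, and 4 to 11 when a library was left out (4 without C2). In Cebpa-KO they numbered 2, and 1 with library totals, 0 with 2 groups only, 1 without both A1 and B3 and 0 to 3 when a library was left out (0 without A1 or F2, and 1 without B1, B2, E1, E2 or E3). In DKO against WT they numbered 0, and 0 to 1 with a library left out (Edem1 without B1, Derl1 without B3). DKO against Cebpa-KO kept a count of 0 under each alternative run, and the interaction gave 3 to 6 with a library left out. The log2 difference in Mup share between DKO and Cebpa-KO was 0.61, and 0.45 to 0.78 with a library left out, with an exact permutation p of 0.0433 without E1 or F3 and 0.0130 without H2. The cause of these changes was not tested. No call turned its direction, while 17 members that did not pass in the libraries labelled Trib1-KO carried the other sign under at least 1 alternative, 13 of them with Mup-free totals. The column number as a block gave 10, 2, 0, 0 and 4 calls in the 5 comparisons, and ended the call of Dnajc3 in the libraries labelled Trib1-KO. The column letter as a term within each group, chosen after seeing the data, gave 8, 2, 0, 0 and 4, with Ssr2 lost. No paired analysis was possible because the labels number the mice without pairing them across groups. Estimated reads overlapped between the groups, and Derl3, with under 100 normalized counts in most libraries, had the fewest of the 40.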
